A study of Homo sapiens with 6 samples.

Results

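The 177 protein-coding olfactory receptor (OR) genes of human chromosome 11 were examined, out of 20098 protein-coding genes on chromosomes 1 to 22 and X. The rule that defines them is one of annotation, the genes on chromosome 11 of GRCh37 whose symbol is OR followed by a digit, and uses no methylation value. DNA methylation was measured by whole-genome bisulfite sequencing in the established human embryonic stem cell line H9, with 3 Conventional and 3 Reset libraries. Conventional cells grew in medium with 10 ng/ml bFGF and 20% KSR. Reset cells descend from H9 that carried doxycycline-inducible NANOG and KLF2 transgenes and, after doxycycline was withdrawn, grew in t2iL+Gö, which holds 1 µM PD0325901 (a MEK inhibitor), 1 µM CHIR99021 (a GSK3 inhibitor), LIF and 5 µM Gö6983 (a protein kinase C inhibitor). Both kinds of culture were kept at 5% oxygen on mouse embryonic fibroblast feeders. Culture medium, transgenes and passage history cannot be told apart as sources of a difference.

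Olfactory receptors are G protein-coupled receptors of the olfactory sensory neurons, and their genes form the largest gene family in the human genome. They lie in tandem clusters in which working genes and decayed copies stand side by side. The coding sequence is usually a single exon, the promoters are poor in CpG and rich in A and T, and each mature neuron expresses 1 allele of 1 receptor, while nearly all other tissues keep the family silent. Class I receptors (families 51 to 56) resemble those of fish, and class II receptors make up the rest of the family. Their signal passes through the G protein subunit GNAL and the cyclase ADCY3 to the cyclic nucleotide-gated channel.

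Of the 177 genes, 57 were class I and 120 class II. With a gap of under 500 kb joining neighbours, 171 genes fell into 8 clusters of at least 4 genes and 6 genes lay outside them. Cluster 1, on 11p15.4, spanned 1833 kb and held all 57 class I genes and no class II gene, so class I and this position could not be told apart. Clusters 4 (7 genes, 273 kb) and 5 (50 genes, 1647 kb) lie on either side of the centromere. The coding sequence was in 1 exon in 172 genes, with a median length of 942 bp and a median of 10 CpGs (2 to 39). A promoter, taken as 1000 bp before to 500 bp after the annotated transcription start, held a median of 8 CpGs (2 to 46), against a median of 80 over all protein-coding genes. In 82 genes the annotated start of transcription is the start codon itself, and in only 108 does it lie within 1000 bp of it, so for many members the promoter is an annotation of uncertain position.

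Sequences of the 300 bases before the annotated start are shown for 4 members (GRCh37, read 5′ to 3′ along the gene, every CpG in capitals). They are the promoter with the largest fall, the one with the highest Reset level, the one that was called higher in Reset, and OR51A2, whose coding sequence has a near copy next to it.

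OR5B3 (chr11:58174348-58174647, minus strand): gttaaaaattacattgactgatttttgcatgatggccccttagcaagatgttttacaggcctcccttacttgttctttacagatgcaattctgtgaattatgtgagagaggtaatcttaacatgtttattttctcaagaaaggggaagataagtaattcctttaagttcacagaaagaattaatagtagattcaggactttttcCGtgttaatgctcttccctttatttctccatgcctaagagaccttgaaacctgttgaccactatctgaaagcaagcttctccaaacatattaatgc

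OR10AG1 (chr11:55737422-55737721, minus strand): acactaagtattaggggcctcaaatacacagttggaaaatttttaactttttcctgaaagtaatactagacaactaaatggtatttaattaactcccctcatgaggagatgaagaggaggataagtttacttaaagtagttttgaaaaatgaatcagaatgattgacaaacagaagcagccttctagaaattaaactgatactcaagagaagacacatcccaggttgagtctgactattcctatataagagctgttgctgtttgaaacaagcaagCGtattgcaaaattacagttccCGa

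OR51A2 (chr11:4976944-4977243, minus strand): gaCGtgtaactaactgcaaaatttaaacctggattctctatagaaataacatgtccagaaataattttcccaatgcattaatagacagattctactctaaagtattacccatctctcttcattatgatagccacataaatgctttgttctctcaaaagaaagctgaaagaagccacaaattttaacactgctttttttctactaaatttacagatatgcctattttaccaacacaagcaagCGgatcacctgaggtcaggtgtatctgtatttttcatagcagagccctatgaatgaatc

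OR52N2 (chr11:5829854-5830153, plus strand): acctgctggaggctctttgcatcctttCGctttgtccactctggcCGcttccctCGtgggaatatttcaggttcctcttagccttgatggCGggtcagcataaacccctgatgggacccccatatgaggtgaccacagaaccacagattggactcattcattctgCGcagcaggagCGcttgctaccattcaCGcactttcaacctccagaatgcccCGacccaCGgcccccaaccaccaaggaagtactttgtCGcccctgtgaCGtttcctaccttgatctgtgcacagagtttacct

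The first 3 are typical of the family, with 1 or 2 CpGs in 300 bases, where the median over the 177 genes was 1 and 51 genes had none. OR52N2 stands apart with 11. In the window shown for OR5B3, 11 of 11 calls were methylated in the 3 Conventional libraries together and 0 of 13 in Reset, which allows a level of up to 23.1%. The OR10AG1 window gave 18 of 19 methylated calls in Conventional and 13 of 20 in Reset. The hexamer TAATTA, a core of sites bound by homeodomain proteins such as LHX2, stood in 28.2% of the 177 windows, in 3.47% of the 19921 windows of other protein-coding genes and in 11.3% of the 1840 of those whose promoter held at most 15 CpGs. CCCNNGGG, the core of EBF sites, stood in 7.91%, 22.9% and 7.01%. Both motifs read the same on either strand and cannot overlap each other, and a match here is a string of letters in a window and not a bound site.

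Another recurring sequence lies in the coding exon. The receptors share a DRY motif at the inner end of the third transmembrane helix, and its Arg codon usually begins with CG. Of 114 members with the motif between residues 100 and 160, 104 (91.2%) had such a codon. Stretches of 30 bases around it are shown for 3 members whose levels are described below, with the CpG of the Arg codon in capitals.

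OR51E2 (chr11:4703564-4703593, minus strand): atggcctttgacCGttatgtggccatctgc

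OR51V1 (chr11:5221523-5221552, minus strand): atggcctttgacCGgtacattgcaatttgc

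OR5T1 (chr11:56043502-56043531, plus strand): atggcttatgatCGctatgtagccatctac

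Summed over the 104 members, the CpG of the Arg codon read 86.3%, 84.0% and 84.6% in the Conventional libraries and 27.2%, 29.3% and 24.6% in Reset (966 and 814 calls). The 1024 other CpGs of the same 104 coding sequences read 84.92%, 86.5% and 84.93%, then 25.6%, 26.8% and 26.9% (10466 and 8257 calls). In both groups the conserved CpG and the rest of its exon overlapped over libraries, with 85.0% ± 1.2 against 85.5% ± 0.92 in Conventional and 27.0% ± 2.4 against 26.4% ± 0.75 in Reset (SD, n = 3).

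The libraries held 70186287 to 97822789 calls at CpGs, or 2.51 to 3.49 calls per CpG of the genome, with the Reset libraries shallower than the Conventional ones. Over all CpG calls the Conventional libraries were at 84.3 to 84.6% and the Reset libraries at 29.5 to 30.3%. A member's level is the share of methylated calls over all its CpGs, and it was tested where every library had at least 10 calls. A coding sequence had a median of 33 calls in a Conventional and 26 in a Reset library, and at 26 calls a level of 50% has an exact 95% binomial interval of 29.9 to 70.1%, so differences of a few points between single genes were not detectable at this depth. The promoters of the pluripotency genes POU5F1, SOX2 and NANOG were at 14.8%, 1.3% and 6.5% in Conventional and 2.7%, 2.5% and 3.8% in Reset, and that of DPPA3, which marks reset cells, at 79.9% and 4.4%. Promoter levels of genes for other cell types stood at 8.6% and 11.8% for COL1A1, 3.1% and 27.9% for COL1A2, 11.4% and 20.2% for THY1, 0.7% and 1.1% for PAX6, 8.9% and 6.6% for SOX17, and 0.4% and 1.9% for GATA3. Of the 3 pluripotency promoters 1 was called lower in Reset and none higher, of the 3 promoters of reset-cell genes (DPPA3, TFCP2L1 at 22.7% and 3.7%, KLF4 at 0.9% and 1.0%) 2 were called lower and none higher, and of the 6 promoters for other cell types none was called lower and 3 higher (COL1A2, THY1 and GATA3), beside 67.5% lower and 3.98% higher among all promoters. THY1 is also a surface marker of conventional pluripotent cells. Whether other cells in the cultures had a part in the levels below was not tested.

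The OR genes lost most of their methylation in Reset, in promoters, coding exons and the DNA between the genes alike. OR promoters averaged 82.0%, 81.7% and 81.4% in the 3 Conventional libraries and 21.5%, 23.03% and 23.1% in Reset, a loss of 72.4% of the Conventional level. Coding sequences averaged 83.9%, 84.5% and 83.2% against 23.6%, 23.2% and 23.8%, a loss of 71.9%. The 1-kb tiles between the genes of the clusters, outside protein-coding genes and OR promoters, averaged 81.6%, 81.7% and 81.7% against 20.9%, 21.7% and 22.2%, a loss of 73.5%. Within either group the 3 libraries lay within 2 points of each other, and all Reset averages lay below all Conventional ones.

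**Figure D1:**
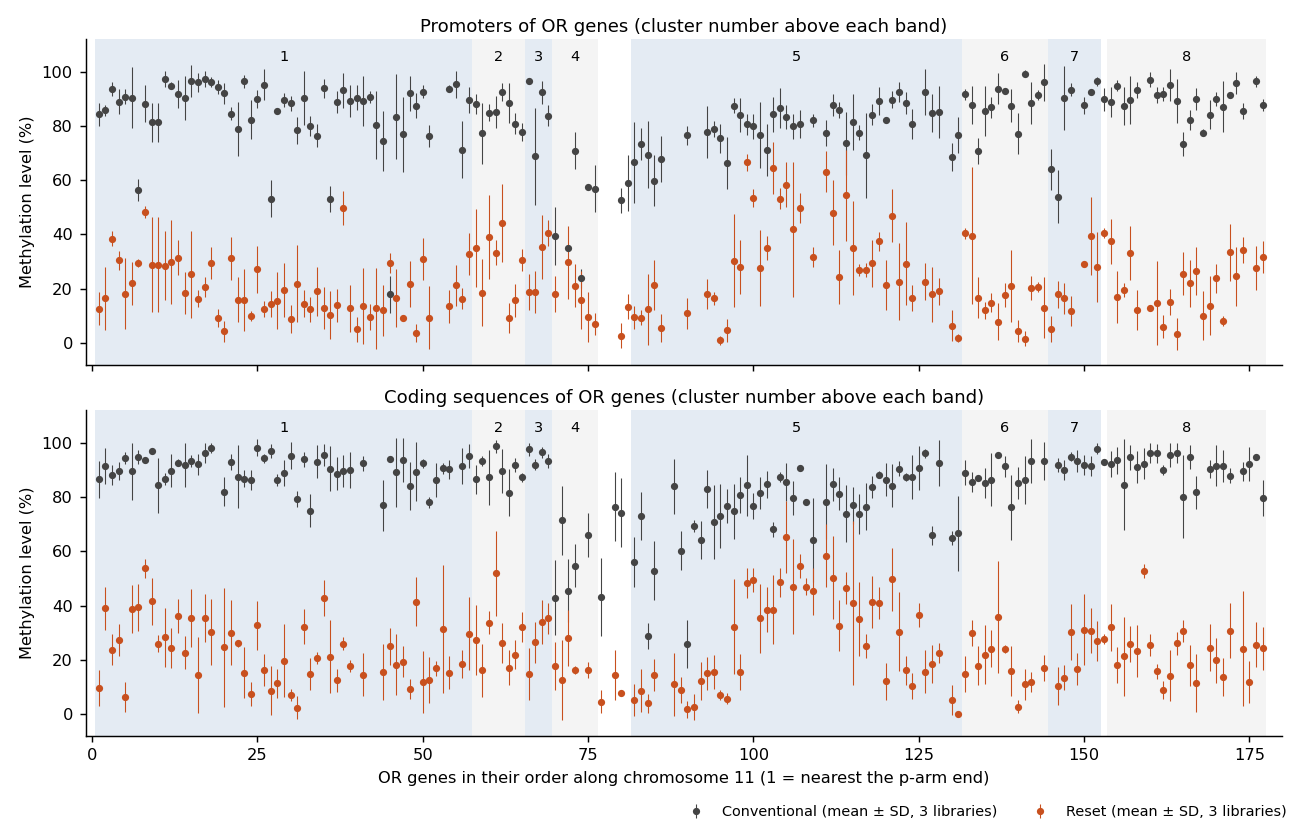
Methylation level (%) of each tested OR promoter (top) and coding sequence (bottom), in chromosomal order on the x axis, for Conventional (grey) and Reset (orange); points are means and bars SD of 3 libraries, and shaded bands mark the 8 clusters by number. Most Conventional points lie above 80% and most Reset points under 35%, with low points in clusters 4 and the start of 5 and a group of high Reset points in the middle of cluster 5.

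Of the 177 promoters, 159 could be tested and 153 were called lower in Reset, 1 higher and 5 neither (quasi-binomial model fitted over all 19447 testable promoters of the genome, Benjamini-Hochberg adjusted p under 0.05). OR51E2 and OR51C1P have the same annotated start, so their promoter counts under both, in the means and motif shares too. Over all promoters 67.5% were called lower and 3.98% higher, but among promoters of other genes with at most 15 CpGs 98.4% were called lower, so the members' share of 96.2% was near that of other CpG-poor promoters. Of the coding sequences, 160 could be tested, 157 were called lower, none higher and 3 neither, where 94.3% of all coding sequences were called lower and 1.3% higher. No member's coding sequence had an unadjusted p under 0.05 in the higher direction either. Testing the pooled calls of each group by Fisher's exact method gave 0 higher and 159 lower. That test covers counting error only and not the spread between libraries. The shares of all coding sequences given above come from the quasi-binomial model and are no background for this count. It is therefore not read as a trait of the members. The 3 Reset values were all under the 3 Conventional ones in 155 of the 159 promoters and 156 of the 160 coding sequences, with backgrounds of 69.1% and 93.8%. The median difference was −62.2 points for the members' promoters and −63.5 points for their coding sequences, beside −9.69 and −47.6 points over all promoters and all coding sequences tested. The 1840 promoters of other genes with at most 15 CpGs averaged 83.6% ± 0.14 in Conventional and 26.2% ± 0.43 in Reset. That is a difference of means of −57.5 points, near the −59.1 points of the OR promoters.

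The remaining members also lay lower in pooled calls, a direction that was not tested. For the 18 promoters with fewer than 10 calls in some library, calls were pooled over the 3 libraries of a group, and all 18 were lower in Reset (50.8 to 96.1%, median 74.3%, in Conventional; 0 to 58.3%, median 14.8%, in Reset). The same held for all 17 coding sequences that were not tested (18.3 to 93.3%, median 78.8%, against 0 to 40%, median 10%). Every member had at least 10 pooled calls in each group over its coding sequence. Only 4 members could be tested in neither feature.

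CpG-poor DNA elsewhere on chromosome 11 had higher levels in Conventional than the OR promoters, and in Reset higher levels with 6 to 15 CpGs but not with 1 to 5. Without clusters 4 and 5 and the genes outside clusters, the OR promoters instead lay below the windows in Reset with 1 to 5 CpGs (14.2% ± 3.0) and above them in Conventional with 11 to 15 (89.9% ± 0.25). Promoters with 6 to 10 CpGs, the class of 92 of the 177 members, averaged 81.4% ± 0.24 in Conventional and 20.0% ± 0.28 in Reset (SD over 3 libraries). The 26825 windows of 1500 bp outside the OR clusters with the same number of CpGs averaged 88.5% ± 0.077 and 23.1% ± 0.66. In this class all 3 Conventional and all 3 Reset values of the OR promoters lay below those of the windows, but in Reset they overlapped windows that hold no gene of any type (20.2%, 21.2% and 21.5%). With 11 to 15 CpGs the promoters (34 members) were at 87.4% ± 0.94 and 26.4% ± 2.4 and the windows at 88.9% ± 0.12 and 29.3% ± 0.62. In both groups these promoters overlapped windows that hold no gene of any type (87.9% ± 0.19 and 27.0% ± 0.53). With 1 to 5 CpGs (33 members) the promoters were at 74.7% ± 1.5 and 20.9% ± 1.5, and the windows at 88.1% ± 0.098 and 19.2% ± 0.82. No test was made between members and windows, since neither are replicates of a condition.

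Coding sequences and tiles lay on average below windows of like CpG number in both groups. Coding sequences with 6 to 10 CpGs (89 members) were at 83.8% ± 0.66 and 22.3% ± 0.51, tiles (1157) at 82.7% ± 0.24 and 21.7% ± 0.67, and 1-kb windows elsewhere (40647) at 88.7% ± 0.10 and 27.5% ± 0.64. Without clusters 4 and 5 and the genes outside clusters, the coding sequences turned to lie above the windows in Conventional with 6 to 10 CpGs (89.3% ± 0.24) and 11 to 15 CpGs (90.8% ± 1.2), and stayed below them in Reset (20.97% ± 1.2 and 23.9% ± 0.93). Tiles of 1 to 5 CpGs overlapped 1-kb windows that hold no gene of any type in Reset (18.9% ± 0.42 against 19.5% ± 0.73). Without clusters 4 and 5, tiles of 6 to 10 CpGs overlapped such windows in Conventional (87.7% ± 0.32 against 87.6% ± 0.13). In Reset these tiles stayed below them (21.5% ± 0.18 against 25.2% ± 0.62). Reset levels rose with the number of CpGs in windows, from 21.9% ± 0.76 with 1 to 5 to 33.9% ± 0.62 with 11 to 15, and in tiles, from 18.9% ± 0.42 to 28.2% ± 1.2. Across single members the relation was weak, with a Spearman coefficient of 0.26 between CpG number and Reset level over 159 promoters and 0.25 over 160 coding sequences, genes that share libraries and neighbourhoods.

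**Figure D2:**
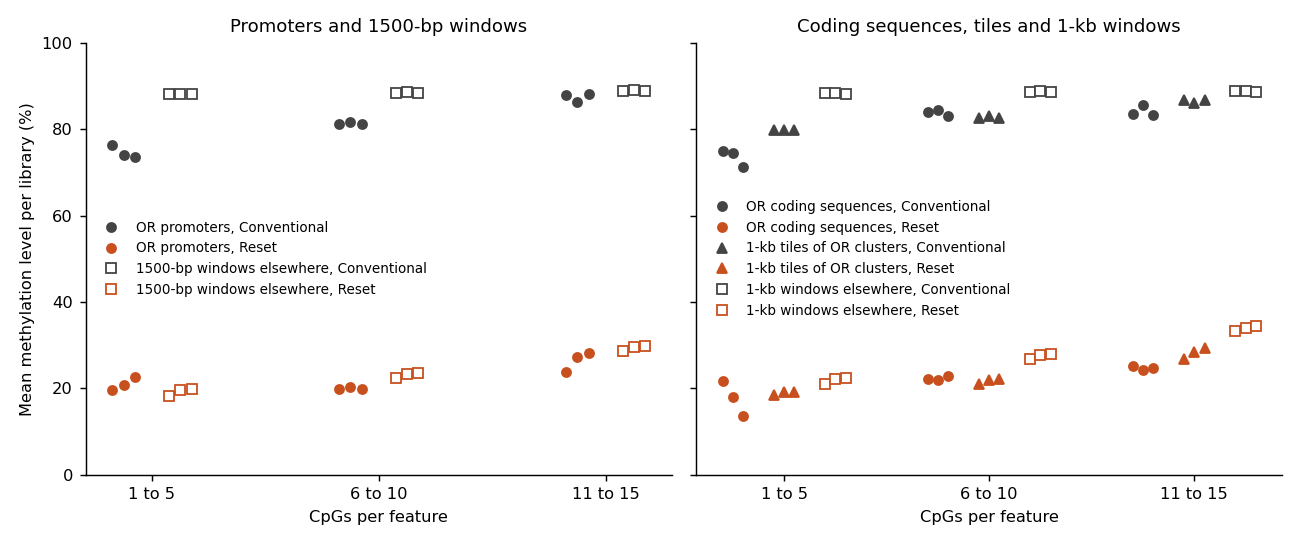
Mean methylation level (%) in each library against the number of CpGs per feature, for OR promoters and 1500-bp windows elsewhere on chromosome 11 (left) and for OR coding sequences, tiles of OR clusters and 1-kb windows elsewhere (right); each point is 1 library, grey Conventional and orange Reset. Conventional windows stand at 88.0 to 89.0% in every class, above the OR features of 1 to 10 CpGs, which stand at 71.3 to 84.4%.

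Conventional levels were lowest in cluster 4. Without clusters 4 and 5 and the 6 genes outside clusters, a division chosen after seeing the data, the remaining 114 promoters averaged 86.0% in Conventional and 20.6% in Reset and the coding sequences 89.7% and 22.6%. Coding sequences were at 49.8% ± 1.7 in Conventional in cluster 4 and at 75.8% ± 1.4 in cluster 5, and at 87.3 to 94.7% in the other 6 clusters. The 6 genes outside clusters were at 71.8% ± 4.5 in Conventional and 13.3% ± 3.4 in Reset. In Reset the 8 clusters ranged from 17.5% ± 3.1 in cluster 4 to 28.3% ± 3.4 in cluster 2. Ranked by Reset level (clusters 4, 6, 7, 8, 1, 5, 3 and 2), neighbouring clusters overlapped over libraries except clusters 1 and 5. Cluster 6, with the OR9Q, OR1S and OR5B genes, was at 87.3% ± 1.3 and 19.4% ± 1.4, cluster 7 at 92.1% ± 2.4 and 20.8% ± 1.6, and cluster 8 at 90.6% ± 1.6 and 22.2% ± 2.0. Tiles were at 61.7% ± 1.0 and 13.5% ± 1.5 in cluster 4, 77.4% ± 0.27 and 24.0% ± 0.80 in cluster 5, and 88.3% ± 0.18 and 18.0% ± 0.83 in cluster 8. Tiles did not always rank as the coding sequences did, and in Reset the highest tile level was that of cluster 7, at 26.6% ± 1.0. All CpGs of cluster 7 in bins of 50 kb were at 8.4 to 19.8% in Reset over its first 150 kb. From 150 to 350 kb, where OR4D9 was the only member, they were at 24.2 to 33.0%.

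Among the 2080 tiles with enough calls, of 3604, 2050 were called lower in Reset and 1 higher, beside 98.3% lower and 0.421% higher over all 1-kb windows of the genome and 99.5% lower in windows of 1 to 10 CpGs elsewhere on chromosome 11. In 2041 tiles the 3 Reset values were all under the 3 Conventional ones, beside 97.9% of all windows. Per cluster the share called lower ran from 95.8% (115 of 120 tiles in cluster 4) to 100% (62 of 62 in cluster 2 and 140 of 140 in cluster 6). The tile called higher, chr11:59319001-59320000 in cluster 7, had 34 CpGs and was at 5.7%, 0.61% and 3.4% in Conventional and 8.3%, 7.0% and 9.9% in Reset. Without Conventional replicate 2 no tile was called higher.

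Class I coding sequences were at 89.8%, 89.5% and 88.0% in Conventional and 23.2%, 21.3% and 23.4% in Reset. Class II sequences were at 81.0%, 82.1% and 80.7%, then 23.8%, 24.1% and 24.0%. In coding sequences the classes were apart in Conventional and nearer in Reset. Class I promoters were at 84.9% ± 0.65 in Conventional and 19.6% ± 0.77 in Reset and class II promoters at 80.1% ± 0.19 and 24.0% ± 1.02, with no overlap in either group, class I being higher in Conventional and lower in Reset. These orders rest on clusters 4 and 5 and the genes outside clusters, which are all class II. Without them the remaining 57 class II genes were above class I in Conventional, at 87.1% ± 0.30 in promoters and 90.2% ± 0.61 in coding sequences, without overlap in promoters and with overlap in coding sequences. In Reset they were at 21.7% ± 2.1 and 22.6% ± 0.85, overlapping class I in both.

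**Figure D3:**
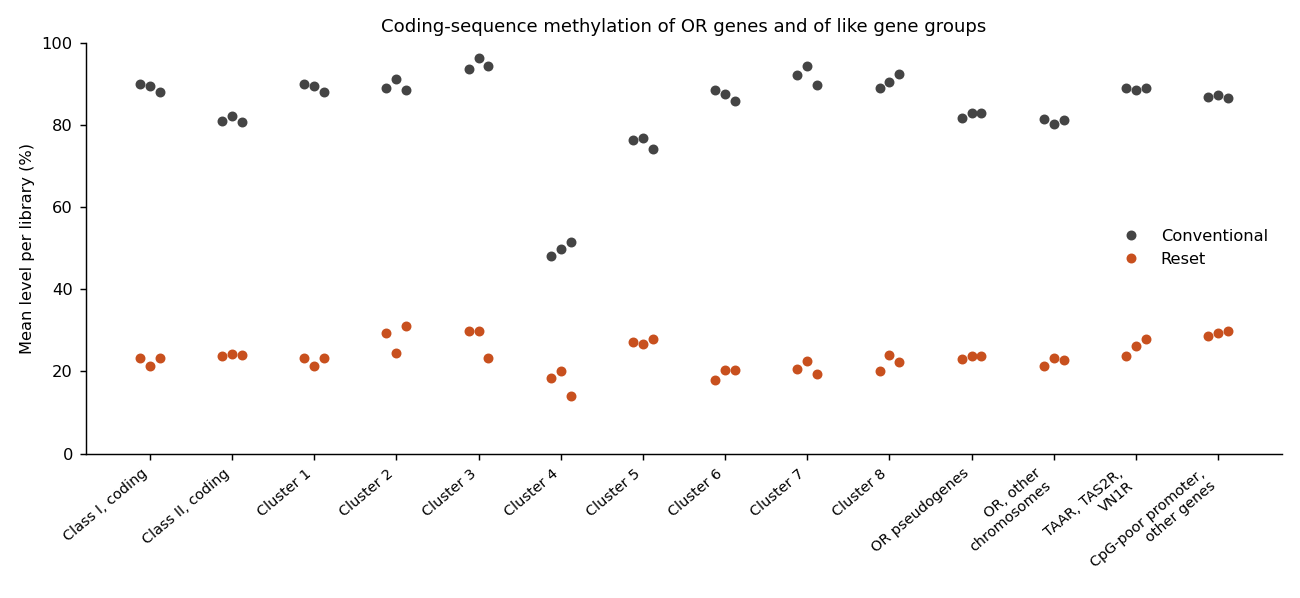
Mean coding-sequence methylation level (%) per library (points; exons for pseudogenes) for OR genes by class and cluster, for OR pseudogenes of chromosome 11, and for like gene groups elsewhere; grey Conventional, orange Reset, class I and cluster 1 being the same 57 genes. Clusters 4 and 5 stand lowest in Conventional at 48.0 to 51.4% and 74.2 to 76.8%, while Reset points of all groups lie between 14.0 and 31.1%.

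Annotated pseudogenes of the family had levels near those of the protein-coding genes, of which 9 have a loss-of-function transcript type and 6 a symbol that ends in P. The 182 OR pseudogenes of chromosome 11 with exons of at least 500 bp averaged 82.5% ± 0.72 in Conventional and 23.5% ± 0.43 in Reset, against 83.9% ± 0.67 and 23.5% ± 0.27 for the coding sequences of the 177 genes. In cluster 1 the pseudogenes were at 90.1% ± 1.0 and 24.4% ± 1.6 (45 pseudogenes), in cluster 5 at 78.0% ± 1.3 and 24.7% ± 1.5 (44) and in cluster 4 at 54.6% ± 5.7 and 14.9% ± 6.3 (5). The 238 OR genes of other chromosomes were at 81.0% ± 0.61 and 22.5% ± 1.1 in their coding sequences and at 79.2% ± 0.24 and 20.6% ± 0.82 in their promoters. The other chemoreceptor genes, 34 TAAR, TAS2R and VN1R genes for trace amines, bitter taste and pheromones, were at 88.8% ± 0.23 and 25.9% ± 2.1. Coding sequences of 1840 other genes with CpG-poor promoters were at 86.8% ± 0.40 and 29.3% ± 0.61, and all 3 of their Reset values lay above those of the chromosome 11 receptors.

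Around the start codon the level was flat although the number of CpGs was not. The first 1000 bp after it, which cover the exon, held 5.41 and 4.96 CpGs per gene and 500 bp, while the bins up to 5000 bp before it and beyond the exon held 2.41 to 3.15. Conventional levels stayed between 81.5 and 86.0% in all 20 bins. Reset levels were 25.4% ± 0.74 and 24.2% ± 1.1 in the 2 exon bins, 21.96% ± 2.0 in the 500 bp before the start codon and 20.4% ± 1.1 in the 500 bp after the exon bins. No dip marked the promoter side in either group, and the exon stood at most a few points above the bins next to it in Reset. The highest Reset bin was not an exon bin. It lay 4500 to 4000 bp before the start codon, at 25.5% ± 1.4, and overlapped the first exon bin over libraries.

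**Figure D4:**
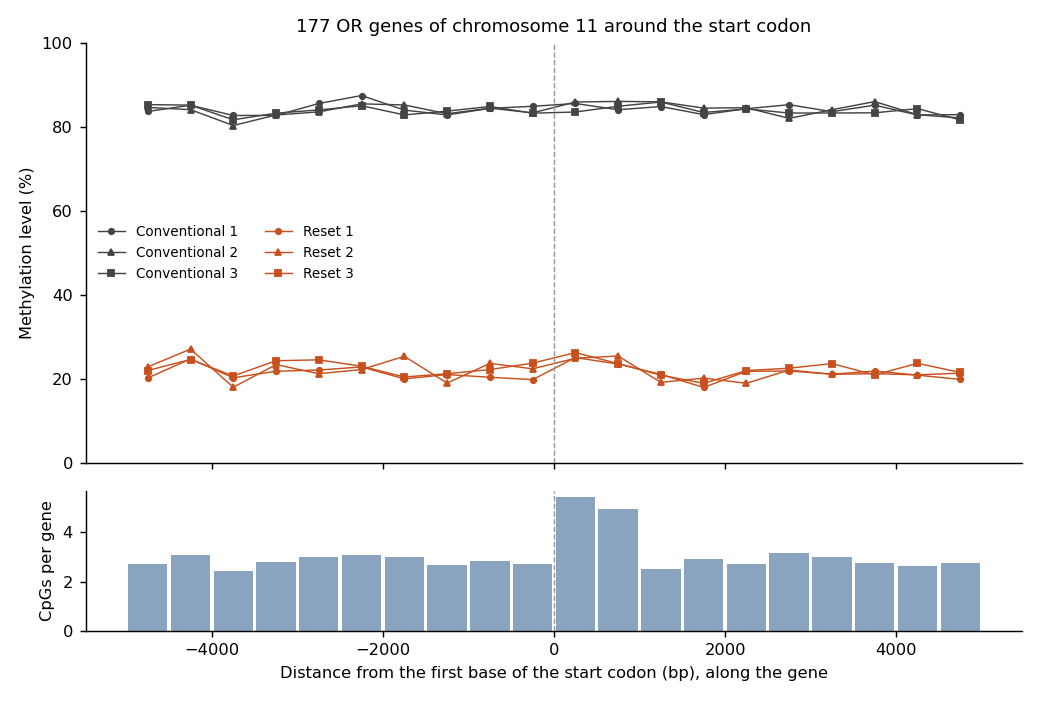
Top, methylation level (%) of all CpGs in 500-bp bins around the start codon of the 177 OR genes, 1 line per library (grey Conventional, orange Reset), calls summed over genes; bottom, mean number of CpGs per gene and bin. CpG number goes from 2.72 per bin before the start codon to 5.41 after it, while the lines stay at 81.5 to 86.0% and 19.0 to 25.5% on average over libraries.

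The level of a gene went with that of its surroundings. Over the 160 tested members the DNA within 25 kb on each side, without the member's own coding sequence and promoter, averaged 83.6% in Conventional and 23% in Reset. On average over members the coding sequences exceeded it by 0.97 points ± 0.52 and 0.96 points ± 0.45 (SD over libraries, n = 3). Single members went both ways, and the coding sequence lay above its surroundings in 107 of 160 in Conventional and 88 of 160 in Reset. Across members the Reset level of the coding sequence and of its surroundings had a Pearson coefficient of 0.71 and a Spearman coefficient of 0.68, and in 144 of 160 members they were within 15 points. These are correlations across genes that share libraries and lie side by side. Promoter and coding levels in Reset had coefficients of 0.72 and 0.66 over 146 members, whose windows overlap where the start of transcription is the start codon. The members differed among themselves by more than counting error, with an SD over members of 13.5 points for promoters and 13.4 for coding sequences in Reset, where counting alone gives 4.4 points for either.

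Cluster 5 held the widest range of Reset levels in 50-kb bins. Its stretches were set after seeing the values and are given without a test. In the first 500 kb, with 15 genes from OR4A16 to OR5D16, all CpGs together were at 68.2%, 68.3% and 68.4% in Conventional and 12.3%, 13.4% and 14.3% in Reset. From 600 to 950 kb, with 14 genes from OR10AG1 to OR8H1, they were at 81.6%, 81.1% and 80.7%, then 43.3%, 46.8% and 45.9%. From 1250 kb to the end, with 8 genes from OR5M1 to OR5AK2, they were at 83.3%, 82.7% and 82.8%, then 15.01%, 15.4% and 15.1%. The step from 24.3% to 48.9% in Reset lay between neighbouring 50-kb bins. It stayed at 42.0 to 48.9% up to 950 kb and was at 20.4% in the bin that starts at 1250 kb and 9.1% in the last bin. The 3 stretches had 2.93, 3.31 and 3.45 calls per CpG and library on average. Depth dropped within the first, with 1785 and 1849 Conventional calls on 279 and 297 CpGs in the bins from 250 to 350 kb. The bins on either side held 3036 and 3180 on 278 and 274 CpGs. Reset calls dropped as well, to 1233 and 1337 beside 2123 and 2366. The lowest Reset level of the cluster, 7.0%, was that of the bin from 250 to 300 kb. Why depth dropped was not tested.

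**Figure D5:**
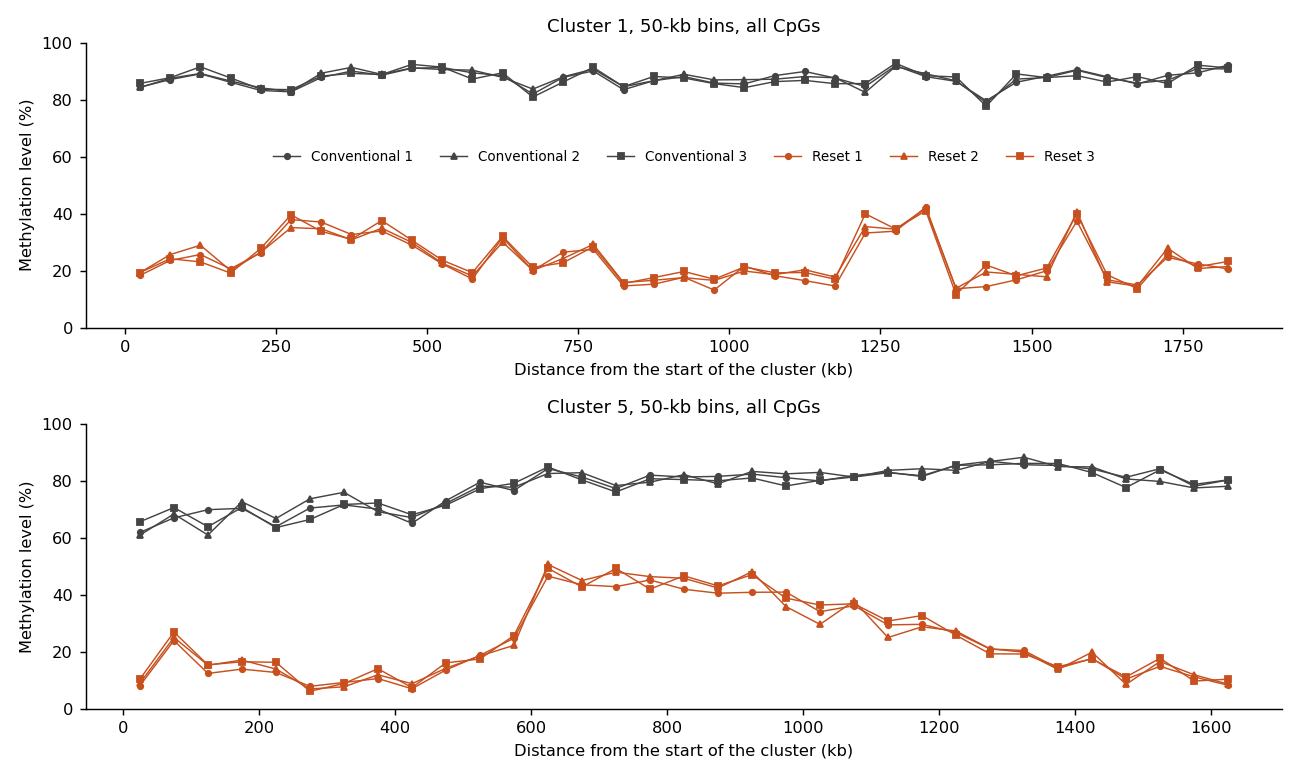
Methylation level (%) of all CpGs in 50-kb bins against the distance (kb) from the start of cluster 1 (top) and cluster 5 (bottom), 1 line per library, grey Conventional and orange Reset. In cluster 5 the Reset lines step from 24.3 to 48.9% on average near 600 kb and fall to 9.1% at the end, while Conventional lines start at 62.8% and reach 86.7%, and cluster 1 stays at 78.8 to 92.1% in Conventional.

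Such levels were found elsewhere on the chromosome too. Of 2490 bins of 50 kb outside the OR clusters, 10.7% were above 40% in Reset and 17.1% under 15%, and 13.1% were under 75% in Conventional. Of the 118 bins in the clusters, 8 (6.78%) were above 40% in Reset, 27 (22.9%) under 15%, and 17 (14.4%) under 75% in Conventional. In cluster 1 the bins ranged from 13.0 to 41.7% in Reset, and the highest bin held no member. The bin of OR51D1 and OR51E1 was at 37.5%, that of OR51E2 at 35.2% and that of OR56A3 at 39.3%.

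The 5 tested promoters with the highest Reset levels, and 3 of the 5 such coding sequences, belonged to cluster 5. The promoter of OR10AG1 was at 81.4%, 76.4% and 84.1% in Conventional and 63.6%, 70.0% and 66.0% in Reset, the highest Reset level of any member's tested promoter. Its groups did not overlap, and its fall of 14.1 points (adjusted p = 0.035) lost its call without Conventional replicate 1 or 3 or Reset replicate 1 or 3 (adjusted p 0.061 to 0.10). Next came the promoters of OR8H2 (64.4%), OR5T1 (63.2%), OR8J3 (58.4%) and OR8K1 (54.4%). Among coding sequences the highest Reset levels were those of OR8J3 (65.3%), OR5T1 (58.4%), OR5J2 (54.6%), OR51E1 (53.7%) and OR10S1 (52.7%). The OR8J3 coding sequence read 86.7%, 91.8% and 78.0% in Conventional and 74.5%, 71.4% and 50% in Reset (adjusted p = 0.028), and the call was lost without Conventional replicate 1 or 2 or Reset replicate 3 (adjusted p 0.062 to 0.098). The OR5J2 coding sequence read 89.5%, 90.9% and 91.7%, then 50%, 55% and 58.8% (adjusted p = 0.0015). OR10S1, in cluster 8, was at 95.3%, 85.7% and 95.7%, then 55.3%, 52.7% and 50%, while its surroundings were at 15.1% in Reset, the widest gap of any member above its surroundings.

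A few members were not called lower. Besides 1 promoter called higher, 5 promoters (OR4X1, OR4C3, OR8H2, OR5T1 and OR8K1) and 3 coding sequences (OR4X1, OR5T2 and OR5T1) were tested without a call. The OR5T1 coding sequence read 84.0%, 62.5% and 88.2% in Conventional and 66.7%, 63.6% and 45.0% in Reset, and the groups overlapped (adjusted p = 0.12). OR5T2 read 61.9%, 80.8% and 50%, then 52.4%, 47.6% and 35.7% (adjusted p = 0.16). At OR8H2 the promoter read 81.2%, 80% and 91.7%, then 53.8%, 66.7% and 72.7%, on 11 to 25 calls per library (adjusted p = 0.077). The OR8K1 promoter read 64.7%, 86.8% and 69.2%, then 70.8%, 37.5% and 55% (adjusted p = 0.11). These 4 genes lie in or next to the stretch of high Reset levels in cluster 5. OR4X1 and OR4C3, in cluster 4, were low in Conventional already. The OR4X1 promoter read 35.7%, 34.4% and 34.6%, then 42.9%, 15.8% and 30.4% (adjusted p = 0.75), and that of OR4C3 read 23.1%, 27.6% and 20.8%, then 15.8%, 5.3% and 26.7% (adjusted p = 0.35).

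OR52N2, a class I gene, was the only member with a feature called higher. Its annotated promoter has 30 CpGs, and its annotated start of transcription lies 11412 bp from the start codon. It read 16.2%, 25.6% and 12.3% in Conventional and 25.4%, 31.8% and 31.7% in Reset, and the lowest Reset value fell just under the highest Conventional one (adjusted p = 0.024). The call was lost without Conventional replicate 3 (adjusted p = 0.13), Reset replicate 2 (0.095) or Reset replicate 3 (0.066). At its start codon the direction turned, from 73.2% to 22.04% (adjusted p = 4.9e-05), and the coding sequence read 93.8%, 95% and 93.0%, then 28.1%, 29.6% and 17.2%. The other tested promoters under 50% in Conventional were OR4B1, OR4X1 and OR4C3 of cluster 4, and the tested coding sequences under 50% were OR4B1, OR4X1, OR4C13, OR4C15 and OR5D3P. Among untested coding sequences that of OR4C3 was at 18.3% in pooled Conventional calls and 16% in Reset. All lie in clusters 4 and 5 but OR4C13, which is outside the clusters, and OR52N2.

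The members with the largest falls were picked by the size of the fall, so their low Reset levels follow from the choice. Some reached almost complete loss. The OR5B3 promoter read 100%, 100% and 97.8% in Conventional and 0%, 0% and 5.0% in Reset (adjusted p = 1.9e-07). OR51A2 read 89.3%, 96.4% and 90.5%, then 7.4%, 0% and 5.6% (adjusted p = 1.3e-06), though its coding sequence is 98.4% identical to that of OR51A4 and reads could be placed on either. The promoters of OR10G7 (89.3% to 3.3%), OR10G9 (91.9% to 6.0%) and OR1S1 (93.6% to 7.8%) came next, and all 3 genes also have a copy at 95% identity or more. Among coding sequences OR51V1, whose DRY stretch is shown above, fell most, from 95.2%, 100% and 96.0% to 8.0%, 0% and 17.9% (adjusted p = 2.2e-06). OR51B2 (95.2% to 7.1%), OR52I2 (94.4% to 6.4%), OR5P2 (97.5% to 14.8%) and OR5B17 (85.2% to 2.8%) followed, of which OR52I2 has a copy at 97.3% identity. The lowest Reset level of a tested coding sequence belonged to OR5AK2, the last gene of cluster 5, whose coding sequence read 54.2%, 81.5% and 64.3% in Conventional and had 0 methylated of 43 calls in Reset, which allows up to 6.98%. In all, 26 of 159 promoters and 21 of 160 coding sequences were under 10% in Reset, and 17 and 21 were above 40%. These counts stand without a share over all features and are not read as a trait of the family.

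Receptors with a known ligand or a role outside the nose did not share a level. OR51E2 and OR51E1, neighbours in cluster 1 that are expressed in prostate and other tissues, were among the members with high Reset levels. The OR51E2 coding sequence read 97.6%, 97.7% and 95.8% in Conventional and 43.7%, 31.9% and 49.0% in Reset (adjusted p = 1.2e-06), and that of OR51E1 read 92.8%, 93.4% and 94.4%, then 57.1%, 54.1% and 50% (adjusted p = 8.6e-06). OR2AT4, the sandalwood receptor of skin, was at 93.0% ± 1.0 and 27.7% ± 1.7, and OR51L1 at 93.0% and 30%. OR5A1, which binds beta-ionone, was at 89.9% and 13.5%, and OR8D1 at 91.5% and 19.8%. OR6A2, linked to the perception of coriander, was at 87.2% and 33.7%. OR10G4 and OR10G7, both in cluster 8, were at 96.1% and 15.8%, and 96.2% and 26.03%. OR10G7 has a near copy, and OR10G4 shares its 30 bases around the DRY motif with OR10G9. OR5AN1, a musk receptor, had 2 CpGs in its coding sequence and 78.6% against 0 methylated of 31 pooled calls in Reset, which allows up to 9.68%, and its promoter fell from 64.0% to 5.3% (adjusted p = 3.7e-05).

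Genes that work with the receptors were taken from a list of signalling proteins and a list of regulators. Of 18 olfactory transduction genes, 11 promoters were called lower in Reset, none higher and 7 neither, beside 67.5% lower among all promoters. The promoter of OMP, the marker protein of mature olfactory neurons on 11q, fell from 92.2% to 51.6% (adjusted p = 1.4e-05), and that of CNGA4, a channel subunit on 11p, from 89.7% to 40.8% (adjusted p = 0.0009). CpG-rich promoters were found on both sides of the threshold. Those called lower included GNAL (15.6% and 4.5%), REEP1 (5.0% and 0.5%), RIC8B (3.7% and 0.2%) and GNG13 (23.5% and 13.8%). Those not called were at 1.2 to 7.8% in Conventional, in ADCY3 (3.6% and 1.4%), ANO2 (1.2% and 1.5%), PDE1C (2.6% and 5.3%), SLC24A4 (7.8% and 10.5%), GNB1 (4.8% and 1.7%), GRK3 (5.7% and 4.2%) and ARRB2 (1.2% and 1.6%). All 17 of their coding sequences that were tested were called lower, beside 94.3% of all coding sequences. Of 10 regulators of receptor choice, 3 promoters were lower (ATF5, KDM1A and NHLH1), 1 was higher and 6 neither, beside 67.5% lower and 3.98% higher among all promoters. The higher one was LHX2, a homeodomain factor of the olfactory lineage, at 0.8% and 4.0% in its promoter (adjusted p = 0.0076) and at 3.1% and 39.1% in its coding sequence, which was called higher too, while 8 of the 10 regulators had lower coding sequences, beside 94.3% lower and 1.3% higher among all coding sequences. EMX2, another homeodomain factor, was not called in its promoter (1.1% and 3.6%) but rose in its coding sequence from 1.6% to 8.3%. Like EMX2, the promoters of LDB1, EBF1, EBF2, EBF3 and EBF4 were not called and were at 0.5 to 5.7% in Conventional.

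Other genes stand among the receptors. Within the clusters lie 23 transcription starts of protein-coding genes outside the family. Of their promoters 19 were called lower, none higher and 4 neither, beside 67.5% lower and 3.98% higher among all promoters. These promoters held from 5 (HBD) to 115 CpGs (PATL1), and among promoters of other genes with at most 15 CpGs 98.4% were called lower. The beta-globin genes, which lie inside cluster 1, fell as well. The promoter of HBB went from 83.9% to 16.6%, that of HBD from 85.8% to 3.8%, that of HBG1 from 92.4% to 24.4%, that of HBG2 from 96.6% to 32.0% and that of HBE1 from 83.5% to 18.5%. HBG1 and HBG2 are near copies, and the start of HBG2 is also that of a read-through gene, so its promoter counts under both. All 18 coding sequences tested among these genes were called lower, near the 94.3% of all coding sequences. OSBP and PATL1, widely expressed genes of cluster 7 with CpG-rich promoters, were at 0.5% and 0.9%, and at 3.1% and 1.3%, without a call. The antiviral genes TRIM21 (43.8% and 32.6%, adjusted p = 0.081) and TRIM22 (56.9% and 40.2%, adjusted p = 0.083) were not called either.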

How the data were processed

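Bisulfite reads were trimmed with Trim Galore and aligned by the authors to GRCh37 with Bismark 0.9.0 and Bowtie2, per the submitters' processing notes, after 11 PCR cycles. The study's methods name an earlier version of Bismark, and which one made the files is not given in the sources used here. The deposited files give, for each cytosine position, a methylation percent and the counts of methylated and unmethylated calls as the authors extracted them. Only the deposited counts were used here, since the percent column follows from them. Positions were read as counted from 0, and both strands of a CpG were summed. PCR duplicates and reads placed on near copies cannot be separated in such counts, so intervals and the limits that a count of 0 allows (3 counts) cover counting error only.

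Genes came from GENCODE release 44 on GRCh37. Features with at least 10 calls in each of the 6 libraries, on chromosomes 1 to 22 and X, were fitted with a quasi-binomial logistic model, with a likelihood-ratio F test and a dispersion squeezed with limma 3.58.1 in R 4.3.3 and kept at 1 or more. P-values were adjusted over all features of a kind (Benjamini-Hochberg, threshold 0.05). An exact permutation test of 3 against 3 libraries cannot go below a two-sided p of 0.1 and was not used. Levels of a set are means over features with at least 10 calls in a library. Near copies were found with blastn 2.17.0 (95% identity over 200 bp or more), and 23 members had one. The CpG scored in the DRY motif is that of the Arg codon.

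The rule for the members uses annotation only, but this gene family and the gene lists were chosen with earlier results of these data known. Named members were those not called lower, the 5 largest falls and the 5 highest Reset levels for promoters and for coding sequences, a list of receptors with known ligands or sites of expression, and members with fewer than 10 pooled calls, of which there were none. OR4B1, OR4C13, OR4C15, OR5D3P, OR5AK2 and the stretches of cluster 5 were named after their values were seen. The libraries of a group are described as biological replicates. Replicates differed by more than counting (chi-square per degree of freedom 1.75 to 2.51), so none was counted as a duplicate.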

Additional observations from a re-analysis of the deposited data

How the results depend on the processing

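Counts of features called lower kept their direction in the alternatives run. With at least 20 calls in every library, fewer features could be tested, and 89 of 91 promoters, 86 of 87 coding sequences and 736 of 742 tiles were called lower, beside 66.4%, 94.5% and 97.4% of all features of each kind. Without clusters 4 and 5, chosen after seeing the data, 1221 of 1233 tiles were called lower, beside 98.3% of all 1-kb windows in the same fit. Leaving out each library in turn gave 150 to 154 promoters, 155 to 159 coding sequences and 2050 to 2232 tiles, of 159 to 163, 160 to 162 and 2093 to 2281 tested, beside 63.5 to 65.5%, 92.9 to 93.7% and 98.0 to 98.1% of all features. The OR52N2 promoter reversed when placed at the start codon (a difference of -51.18 points), and the OR4X1 promoter, not called, ranged from -11.8 to 1.74 points over the libraries left out and reversed without Reset replicate 2.

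Libraries of both groups carry the numbers 1 to 3, but deviations of same-numbered libraries from their group means had correlations of 0.0074 to 0.012 over promoters, so the numbers were not taken as pairs. With the replicate block 151 of 159 promoters, 157 of 160 coding sequences and 2042 of 2080 tiles were called lower, beside 66.2%, 94.0% and 98.2% of all features, and OR52N2 was no longer called higher (adjusted p = 0.052, quasi-binomial fit, dispersion from limma).

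Mean levels moved by more than the SD over libraries in several settings. With calls summed over all members, promoters were at 82.2% in Conventional and 24.0% in Reset, coding sequences at 84.8% and 24.8%, and tiles at 81.3% in Conventional. With at least 20 calls, promoters were at 82.7% and 23.7%, coding sequences at 25.6% in Reset, and tiles at 82.6% and 23.4%. With at least 5 calls, coding sequences were at 22.95% in Reset and tiles at 81.0% and 20.9%. Promoters placed at the start codon were at 82.9% in Conventional. Without clusters 4 and 5 and the genes outside clusters, promoters were at 86.0% and 20.6%, coding sequences at 89.7% and 22.6%, and tiles, without clusters 4 and 5, at 86.7% and 20.9%. Class II genes without the same clusters and genes were at 87.1% and 21.7% in promoters and 90.2% and 22.6% in coding sequences. Windows that overlap no gene of any type, in classes of 1 to 5, 6 to 10 and 11 to 15 CpGs, were at 87.0%, 87.3% and 87.9% in Conventional and 17.5%, 21.0% and 27.0% in Reset (1500 bp), and at 87.1%, 87.6% and 88.2%, then 19.5%, 25.2% and 32.9% (1 kb). Windows of 1 to 10 CpGs as 1 class were at 88.4% and 22.1% (1500 bp) and 88.5% and 25.1% (1 kb). The cause of these shifts was not tested.

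Among 42 features of named members, 454 results kept direction and side of the threshold, 14 lost and 9 gained a call, and 2 reversed. Depth limits single genes, since at 10 calls a level of 50% has an exact 95% interval of 18.7 to 81.3%.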
